A study of Mus musculus with 8 samples.

Results

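The genes described here form and clear adenosine and lysophospholipid signals, and 10 of them were chosen by name among the 31053 genes of a single-cell RNA count matrix of mouse liver stromal cells, of which 17384 had a transcript in the kept cells. The members are Entpd1, Nt5e, Adora2a, Ada, Adk, Enpp2, Plpp1, Plpp3, Spns2 and S1pr1, and all 10 were found in at least 1 library. They were chosen with earlier results on diet in sinusoidal endothelial cells known, so their values in that comparison are a description. Each library came from 1 of 8 male C57Bl/6 mice, of which 4 had a diet rich in fat and cholesterol (HFHC) and 4 a chow control diet; no transgene or mutation is labelled. Mice are labelled as 6 to 8 weeks old and were fed for 20 to 32 weeks, which makes that age one before harvest, and HFHC titles read calorie in place of the design text's cholesterol. Live cells were sorted with antibodies to CD45 and PDPN besides CD31 and CD146 to enrich endothelium before droplet sequencing.

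Each droplet transcript carries a unique molecular identifier (UMI), and levels below are UMIs of a gene per 1000000 UMIs of the summed cells (CPM). HFHC libraries 1 to 4 held 47, 74, 857 and 616 kept cells, and control libraries 1 to 4 held 55, 875, 574 and 94. Total UMIs per library ran from 170448 to 2309209, and the libraries HFHC 1, 2 and 3 and control 1 and 2 shared 33 to 65 cell barcodes in each pair, against at most 4 in every other pair. The library labelled control 4 carried Xist transcripts, which mark female cells, in 67 of its 94 cells and the other 7 libraries in 0, although all labels say male; the title of HFHC 4 numbers its animal 14. LSEC-like results are therefore also given without it, whereas the only lymphatic cells came from that library. Cells were named only by markers that are not members, as liver sinusoidal endothelial cell (LSEC)-like and so on. HFHC 4 held 548 LSEC-like cells and the other HFHC libraries 3, 0 and 2, whereas controls 1 to 4 held 21, 60, 545 and 38. All 12 LSEC markers were found in each of these 5 larger sets. Exact 95% intervals cover counting error only.

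Extracellular ATP and ADP are hydrolysed by the ectonucleotidase CD39, encoded by Entpd1, and the resulting AMP by CD73, encoded by Nt5e, to adenosine, which acts on receptors such as that of Adora2a. Adenosine is removed by deamination to inosine through adenosine deaminase (Ada) or by phosphorylation to AMP through adenosine kinase (Adk). In the other pathway, autotaxin (Enpp2) makes lysophosphatidic acid (LPA), the membrane lipid phosphate phosphatases of Plpp1 and Plpp3 dephosphorylate LPA and sphingosine 1-phosphate (S1P) at the cell surface, Spns2 exports S1P from endothelial cells, and S1pr1 encodes the S1P receptor that supports endothelial barrier function. LSECs line the liver capillaries and are fenestrated, scavenging endothelial cells in direct contact with blood.

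Of the 3 members that lay below all controls in LSEC-like cells of HFHC 4, Plpp3 and Ada had a RefSeq promoter entry. The 250 bases before their starts are shown for these 2 genes that were low in the same cells. Capitals mark CACCC, the core of a Krüppel-like factor motif, which reads GGGTG where it lies on the other strand. Plpp3 lies on the plus strand of chromosome 4 and Ada on the minus strand of chromosome 2, and both windows are written 5′ to 3′ on the gene's strand from GRCm38.p6.
Plpp3, chr4:105157097-105157346: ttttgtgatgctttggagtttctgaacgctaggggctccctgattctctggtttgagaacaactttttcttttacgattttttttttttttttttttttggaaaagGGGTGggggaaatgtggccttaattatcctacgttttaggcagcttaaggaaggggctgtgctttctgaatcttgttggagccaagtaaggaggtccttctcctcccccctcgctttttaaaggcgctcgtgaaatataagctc
Ada, chr2:163750240-163750489: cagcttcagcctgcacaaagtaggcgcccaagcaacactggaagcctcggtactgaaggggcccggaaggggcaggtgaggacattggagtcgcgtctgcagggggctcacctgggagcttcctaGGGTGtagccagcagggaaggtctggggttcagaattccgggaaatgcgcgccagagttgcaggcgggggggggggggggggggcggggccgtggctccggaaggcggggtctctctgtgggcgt
Each window held 1 CACCC on either strand, which 52.0% of 32851 promoter windows of the same length also held at least once. On either strand, neither held TGATAA, a motif of erythroid and endothelial zinc-finger factors that 7.94% of windows held, nor the TATA box letters TATAAA that 12.4% held. The Plpp3 window had a GC content of 42.4% and the Ada window 67.2%, against a median of 52.4% over all windows. These matches describe letters and do not show binding.

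The first comparison asked how the members stood in LSEC-like cells on the HFHC and the control diet. Ada, 1 of the 2 genes of adenosine-removing enzymes, and the lipid phosphatase genes Plpp1 and Plpp3 were lower in HFHC 4 than in each of the 4 control libraries, and S1pr1, Adora2a, Adk, Spns2 and Entpd1 lay within the range of all 4 controls. Without the library labelled control 4, Adora2a lay above and Spns2 just below the remaining 3 controls, and S1pr1, Adk and Entpd1 stayed within them. Nt5e and Enpp2 had no UMI in LSEC-like cells of any of these 5 libraries. A position below all 4 controls was held by 585 of 3363 tested genes (17.4%), and a position above all 4 by 369 (11%). Only HFHC 4 stands for the diet here, since the other HFHC libraries had fewer than 10 LSEC-like cells and were left out, so spread among HFHC mice is not measured.

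Ada, which deaminates adenosine, had the largest fitted difference of the 6 members with enough UMIs for the fit. It had 16.4 CPM in HFHC 4, from 16 UMIs in 548 cells, against 56.7, 46.7, 126 and 116 CPM in controls 1 to 4, from 3, 6, 100 and 9 UMIs. The HFHC value lay below all controls, whose mean was 86.4 ± 40.5 CPM (SD, n = 4). The fitted log2 difference was -2.32 (SE 0.78), which rests on few UMIs outside control 3. Ratios of HFHC 4 over controls 1 and 2 were 0.290 (0.0830 to 1.55) and 0.352 (0.131 to 1.10), with intervals that include 1. The ratio over control 4 was 0.142 (0.0591 to 0.365). Ada lies on chromosome 2 of mm10, from 163726584 to 163750239.

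Adk, which makes AMP from adenosine, had 21.6 CPM in HFHC 4 and 37.8, 93.5, 13.9 and 25.7 CPM in controls 1 to 4. The HFHC value fell inside the control values, and the log2 difference of -0.81 (SE 1.67) was 0.29 when control 2 was left out. Adora2a, the receptor gene, had 27.8 CPM in HFHC 4 and 18.9, 23.4, 13.9 and 38.6 CPM in controls 1 to 4, within the range of all 4 controls but above the first 3. Entpd1 had 4 UMIs in HFHC 4 and 0, 1, 0 and 0 UMIs in controls 1 to 4, too few for the fit. The absence of Nt5e and Enpp2 UMIs allows a level of up to 3.08 CPM in HFHC 4 and 3.79 CPM in control 3, each the level of 3 UMIs, and up to 56.7 CPM in control 1, the smallest of these sums.

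Plpp1 had 424 CPM in HFHC 4 and 1248, 1456, 1686 and 1904 CPM in controls 1 to 4. The control mean was 1574 ± 283 CPM (SD, n = 4), and the HFHC value lay well below the lowest control. Plpp3 had 685 CPM in HFHC 4 and 1362, 1254, 1431 and 1428 CPM in controls 1 to 4, with a control mean of 1369 ± 82.8 CPM (SD, n = 4). For Plpp3 the control libraries lay close together, whereas for Plpp1 they were more spread out. HFHC 4 lay below all of them for both phosphatase genes. The fitted log2 differences were -1.76 (SE 0.43) for Plpp1 and -0.87 (SE 0.40) for Plpp3.

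In the edgeR quasi-likelihood fit over all 3363 tested genes, Plpp1 was the only member of the 6 tested among the genes called lower, at a Benjamini-Hochberg adjusted p under 0.05. That fit called 12 genes in all (0.357%), 7 of them higher (0.208%) and 5 lower (0.149%). As the members were chosen with this contrast in view, the call is given as a description. Plpp1 was not called when control 1, control 2 or the library labelled control 4 was left out, where its log2 differences were -1.77, -1.71 and -1.63, and it was called without control 3, at -1.75. Without the library labelled control 4, Plpp3 was at -0.81 and Ada at -2.25.

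The 2 phosphatase genes were not lower to the same degree. Plpp1 made up 38.2% of the summed Plpp1 and Plpp3 UMIs in HFHC 4 (Wilson 95% interval 35.4 to 41.2) and 47.8, 53.7, 54.1 and 57.1% in controls 1 to 4. The HFHC share lay below all 4 control shares, and its interval overlapped only that of control 1 (39.7 to 56.1), which rests on 138 UMIs.

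**Figure D1:**
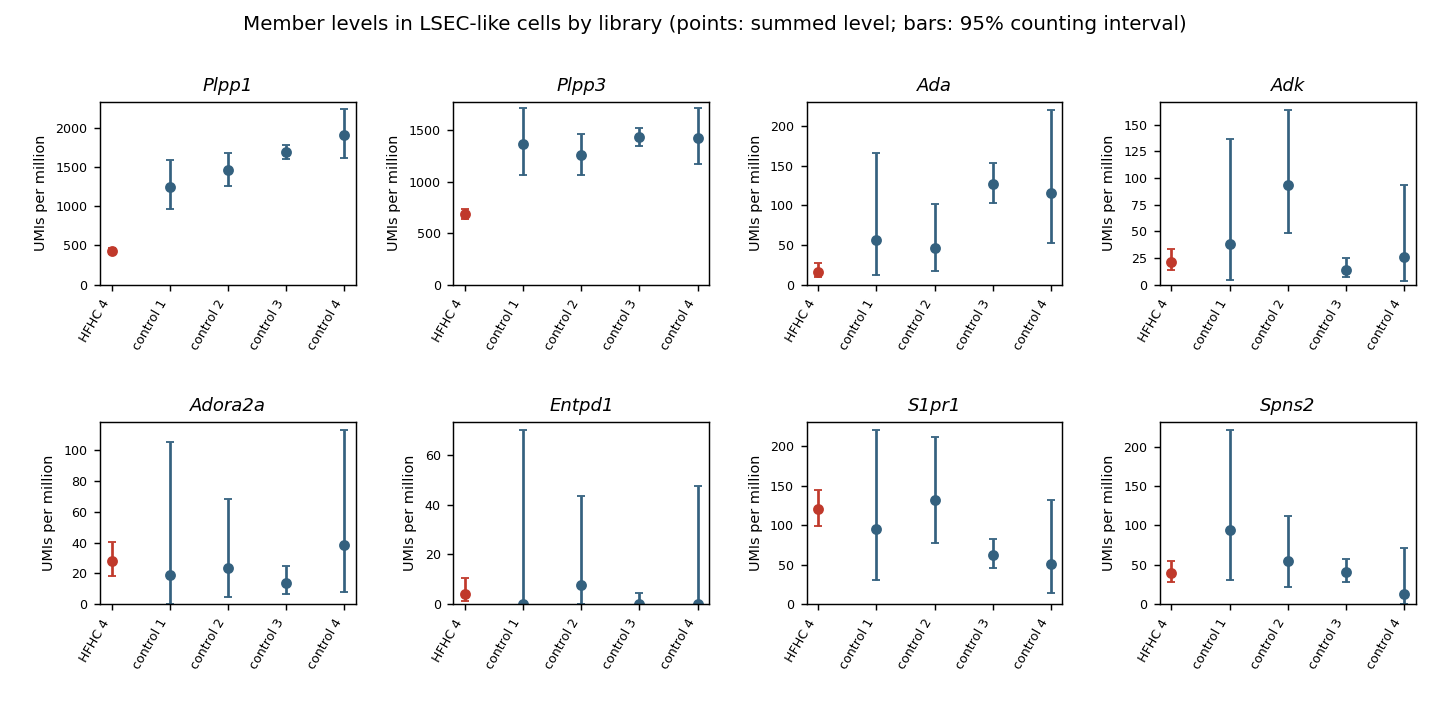
Levels of 8 members in LSEC-like cells, in CPM, for HFHC 4 (red) and controls 1 to 4 (blue), with exact 95% counting intervals as bars. Plpp1, Plpp3 and Ada sit lower in HFHC 4 (424, 685 and 16.4) than in each control, while the other 5 lie within the range of the 4 controls.

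S1pr1 had 120.3 CPM in HFHC 4 and 94.6, 132, 62.0 and 51.4 CPM in controls 1 to 4. The S1P receptor gene was thus inside the control range, with a log2 difference of 0.67 (SE 0.53). Spns2, the S1P exporter gene, had 40.1 CPM in HFHC 4 and 94.6, 54.5, 40.5 and 12.9 CPM in controls 1 to 4, so that only the library labelled control 4 was lower. Its fitted difference of -0.13 (SE 1.17) changed sign without control 1 (0.21) or control 2 (0.06).

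The share of cells with a transcript was also lowest in HFHC 4 for Plpp1 and Plpp3. After each cell was thinned to 1000 UMIs, 30.6% of 412 LSEC-like cells of HFHC 4 had a Plpp1 UMI, against 66.7, 64.8, 75.6 and 75.8% in controls 1 to 4 (n = 15, 54, 386 and 33 cells). The unthinned shares were 42.3% in HFHC 4 and 66.7, 85.0, 75.4 and 81.6% in controls 1 to 4. Thinned shares for Plpp3 were 46.6% in HFHC 4 and 66.7, 70.4, 73.8 and 63.6% in controls 1 to 4, and unthinned shares 57.3% in HFHC 4 and 71.4, 85.0, 74.7 and 73.7% in controls. Hepatocyte-like cells, which should lack endothelial Plpp1, had a thinned share of 0% in HFHC 3 and 1.10% in control 2. Median depth was 1476 to 1967.5 UMIs per LSEC-like cell, and 1975 and 1097.5 UMIs per hepatocyte-like cell of HFHC 3 and control 2. HFHC 4 and control 3 had no hepatocyte-like cells to measure free RNA in. An Ada UMI was found in 2.37% of cells of HFHC 4 and 9.52, 6.67, 14.3 and 13.2% of cells of controls 1 to 4 before thinning. After thinning these shares were 1.46% in HFHC 4 and 6.67, 1.85, 12.4 and 6.06% in controls 1 to 4, so that HFHC 4 was lowest but control 2, with 1 of 54 cells, lay close to it. Thinning left out 136 cells in HFHC 4 and 159 in control 3.

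Marker sums of the LSEC-like cells differed as well, some with HFHC 4 below all controls and some with HFHC 4 within them. The 12 LSEC markers summed to 13640 CPM in HFHC 4 and 15786 to 22411 CPM in controls. The 14 vascular endothelial markers summed to 557 CPM in HFHC 4, with Fbln5, Cytl1 and Sele at 0, and 684 to 1472 CPM in controls, and the 12 hepatocyte markers to 164 CPM in HFHC 4 and 219 to 3037 CPM in controls. Of the 5 lymphatic markers, 3 were found in HFHC 4 (3.08 CPM), with Pdpn and Mmrn1 at 0, and 1 to 4 in controls (1.26 to 785 CPM, the highest in the library labelled control 4). Fibroblast or stellate markers summed to 2.06 CPM in HFHC 4, with 9 of 11 at 0, and 25.7 to 965 CPM in controls. Kupffer markers summed to 30.8 CPM in HFHC 4, within the 23.4 to 303 CPM of controls. Mesothelial markers summed to 20.6 CPM in HFHC 4, within the 0 to 454 CPM of controls. The part of these marker sums in the differences was not tested.

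Only control 3 held a number of LSEC-like cells near that of HFHC 4, and both lie outside the set of libraries that share many barcodes. Over these 2 libraries, HFHC 4 over control 3, Plpp1 gave a ratio of 0.251 (exact 95% interval 0.224 to 0.281), Plpp3 of 0.479 (0.434 to 0.527) and Ada of 0.130 (0.0716 to 0.222). S1pr1 gave 1.94 (1.38 to 2.77), Adora2a 1.99 (0.958 to 4.46), Adk 1.55 (0.715 to 3.56) and Spns2 0.990 (0.605 to 1.63). Of these 4 genes, S1pr1 alone had an interval above 1, although its level in HFHC 4 lay within the range of all 4 controls. These ratios have no replicate check, and the intervals hold counting error only.

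The lower levels were present in each subset of LSEC-like cells examined. In pericentral-leaning cells, which carried more markers of the central vein end of the sinusoid, Plpp1 had 536 CPM in HFHC 4 and 2073 CPM in control 3, and Plpp3 had 586 CPM in HFHC 4 and 1407 CPM in control 3. In periportal-leaning cells Plpp1 had 283 CPM in HFHC 4 and 1246 CPM in control 3, and Plpp3 had 797 CPM in HFHC 4 and 1490 CPM in control 3. Cells leaning neither way had Plpp1 at 485 CPM in HFHC 4 and 1392 CPM in control 3. The Plpp1 ratio was 0.259 (0.221 to 0.302), 0.227 (0.181 to 0.284) and 0.348 (0.272 to 0.444) in these subsets, so it was below 0.5 in each. Ada gave 0.0932 (0.0291 to 0.231), 0.232 (0.0949 to 0.517) and 0.0757 (0.00858 to 0.311), from 5, 9 and 2 UMIs in HFHC 4.

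Esm1, which encodes the secreted proteoglycan endocan and is induced in activated endothelium, was used to divide the cells with its values known. It was found in 133 of 548 LSEC-like cells of HFHC 4 (24.3%) and in 3 of 545 of control 3 (0.550%). Summed over HFHC 4, control 2 and control 3, Esm1 had 97 UMIs in pericentral-leaning and 251 in periportal-leaning cells. The part of zone in the Esm1 split was not tested. Within HFHC 4, Plpp1 had 299 CPM in cells with an Esm1 UMI and 482 CPM in those without, a ratio of 0.621 (0.487 to 0.784). Plpp3 had 473 CPM in Esm1-positive and 784 CPM in Esm1-negative cells, a ratio of 0.603 (0.499 to 0.726), whereas S1pr1 had 125 CPM in Esm1-positive and 118 CPM in Esm1-negative cells, a ratio of 1.06 (0.706 to 1.58). Cells with an Esm1 UMI were deeper, with a median of 2165 UMIs against 1473 in those without, and per 100 cells they held 69.9 against 76.9 Plpp1 UMIs and 111 against 125 Plpp3 UMIs, so the gap in CPM was wider than that per cell. Cells without an Esm1 UMI still had Plpp1 at 482 CPM in HFHC 4 and 1694 CPM in control 3, Plpp3 at 784 CPM in HFHC 4 and 1438 CPM in control 3, and Ada at 19.6 CPM in HFHC 4 and 127 CPM in control 3.

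**Figure D2:**
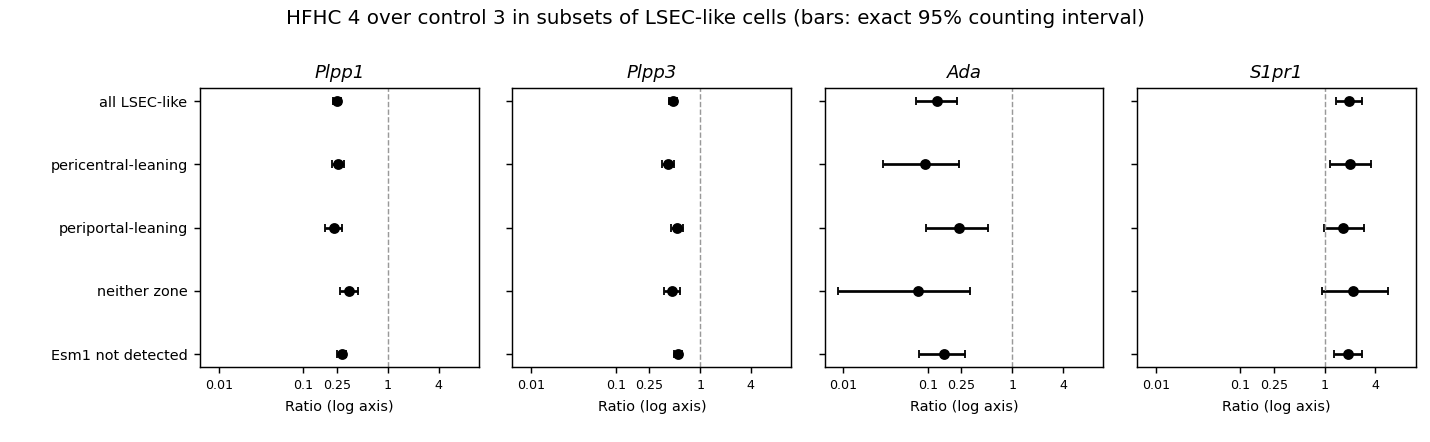
Ratio of the CPM in HFHC 4 over control 3, on a log axis, for Plpp1, Plpp3, Ada and S1pr1 in all LSEC-like cells and in 4 subsets, with exact 95% counting intervals. Plpp1, Plpp3 and Ada lie left of 1 in every subset shown, and S1pr1 lies right of 1, with intervals that include 1 in periportal-leaning cells and in cells leaning neither way.

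The few LSEC-like cells of the other HFHC libraries were not fitted. HFHC 1 had 3 such cells, with 13 Plpp1 UMIs at 619 CPM (330 to 1058) and 8 Plpp3 UMIs at 381 CPM (164 to 750.4). HFHC 3 had 2 cells, with 2 UMIs of each gene at 189 CPM (22.9 to 682). In both libraries the CPM of Plpp1 and Plpp3 lay below the lowest control, though on 2 or 3 cells. HFHC 1 had 2 Ada UMIs at 95.2 CPM, inside the control range. These cells were deep, with 21006 UMIs in 3 cells of HFHC 1 and 10599 in 2 cells of HFHC 3. Per 100 cells, HFHC 1 held 433 Plpp1 UMIs, above the 314, 312, 245 and 389 of controls 1 to 4. Its 267 Plpp3 UMIs per 100 cells lay within the 343, 268, 208 and 292 of those controls. HFHC 3 held 100 UMIs of each gene per 100 cells, below all controls.

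The next question was which cell types of these livers carry the members. Levels were set out over 13 marker-gated classes with at least 10 cells in a library, 23 library-by-class sums in all. Mean levels of Plpp1, Plpp3 and Ada were highest in LSEC-like cells, that of Adk in hepatocyte-like cells, that of S1pr1 in lymphatic endothelial cell (LEC)-like cells, next to an overlapping vascular endothelial-like level, and that of Entpd1 in neutrophil-like and vascular endothelial-like cells.

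Plpp1 averaged 1344 ± 570 CPM over the 5 LSEC-like sums (SD), 381 ± 25.2 over 2 vascular endothelial-like sums, 206 in LEC-like cells and 158 ± 3.12 over 2 mesothelial-like sums. Every other class averaged at most 19.1 CPM, with single sums of up to 26.7 CPM, and the 0 UMIs of neutrophil-like cells allow up to 188 CPM. The lowest LSEC-like sum, 424 CPM in HFHC 4, lay close to the higher vascular one of 399 CPM. Plpp3 averaged 1232 ± 314 CPM in LSEC-like cells (SD, 5 sums), 414 ± 156 in vascular endothelial-like cells (SD, 2 sums), 165 in LEC-like and 82.2 ± 53.4 in mesothelial-like cells (SD, 2 sums). Kupffer-like cells followed at 57.3 CPM and cholangiocyte-like cells at 50.2 ± 20.5 CPM, and mesothelial-like, Kupffer-like and cholangiocyte-like cells did not differ beyond this spread. Ada averaged 72.4 ± 47.0 CPM in LSEC-like cells (SD, 5 sums), 20.6 in LEC-like cells from 2 UMIs and 7.97 in vascular endothelial-like cells from 1 UMI. It was at 0 in the summed cells of 9 of the 13 classes, of which neutrophil-like and platelet-like cells allow up to 188 and 112 CPM, more than the LSEC-like mean.

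Adk had 1906 CPM in hepatocyte-like cells of HFHC 3 and 1472 CPM in those of control 2, a ratio of 1.29 (1.22 to 1.38) between the 2 libraries. Cholangiocyte-like cells averaged 354 ± 110 CPM (SD, 2 sums), and LSEC-like cells, with the lowest mean, 38.5 ± 31.9 (SD, 5 sums). The lowest place is not settled, since LEC-like cells had 41.1 CPM from 4 UMIs and vascular endothelial-like cells 72.2 ± 11.9 (SD, 2 sums). Adk was the only member with UMIs in all 13 classes. All sums of blood and immune classes other than Kupffer-like cells came from the hepatocyte-rich libraries HFHC 3 and control 2. Hepatocyte markers in LSEC-like cells of HFHC 4 and controls 1 to 4 summed to 164, 681, 3037, 219 and 527 CPM. Adk in the same sums had 21.6, 37.8, 93.5, 13.9 and 25.7 CPM. The part of free hepatocyte RNA in the Adk levels of other classes was not tested.

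S1pr1 averaged 247 CPM in LEC-like cells, 172 ± 72.3 in vascular endothelial-like (SD, 2 sums), 92.1 ± 35.3 in LSEC-like (SD, 5 sums) and 60.8 ± 45.8 in B-like cells (SD, 2 sums), and the vascular, LSEC-like and B-like values overlapped. The LEC-like level (158 to 367) and that of vascular endothelial-like cells of HFHC 4, 223 CPM (122 to 374), had overlapping intervals. The LEC-like cells came from the library labelled control 4 alone, where S1pr1 had 24 UMIs in 27 LEC-like cells and 4 UMIs in 38 LSEC-like cells, a ratio of 4.80 (1.65 to 19.0). In the same library Plpp1 had 206 CPM in LEC-like and 1904 CPM in LSEC-like cells, a ratio of 0.108 (0.0641 to 0.173). Spns2 was spread over cholangiocyte-like cells at 74.8 ± 20.3 CPM (SD, 2 sums), LEC-like cells at 72.0 and LSEC-like cells at 48.5 ± 29.9 (SD, 5 sums), which did not differ beyond their spread.

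Entpd1 had 314 CPM in neutrophil-like cells from 5 UMIs, 138 ± 52.7 in vascular endothelial-like cells from 16 UMIs (SD, 2 sums) and 39.3 in T or NK-like cells from 7 UMIs, against 2.38 ± 3.51 in LSEC-like cells (SD, 5 sums). Adora2a averaged 41.1, 37.3, 33.7 and 24.5 CPM in LEC-like, platelet-like, T or NK-like and LSEC-like cells, on 4, 1, 6 and 45 UMIs, too few to settle their order. Enpp2 averaged 45.6 ± 48.7 CPM in mesothelial-like cells from 7 UMIs (SD, 2 sums), of which 6 were in control 1 and 1 in HFHC 1. Nt5e had 4 UMIs in these 13 classes together, none of them in LSEC-like cells.

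**Figure D3:**
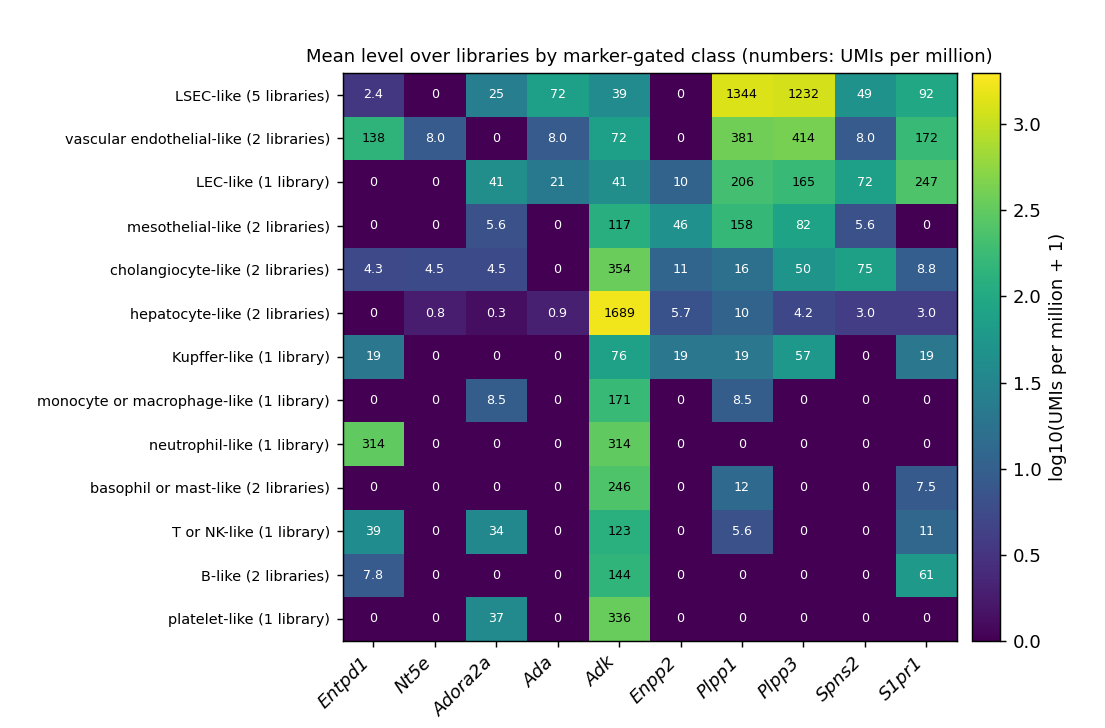
Mean level of each member over the library sums of 13 marker-gated classes, with the number of libraries per class; the printed numbers are CPM and the colour is log10 of that value plus 1. The endothelial rows at the top are bright for Plpp1 and Plpp3 (1344 and 1232 in LSEC-like cells), and Adk is brightest in hepatocyte-like cells (1689).

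LSEC-like cells were then tested against vascular endothelial-like cells of the same libraries, HFHC 4 with 548 and 23 cells and control 2 with 60 and 13. Plpp3 was higher in LSEC-like cells, with 685 against 303 CPM in HFHC 4 and 1254 against 524 CPM in control 2. The ratio was alike in both libraries, at 2.26 (1.44 to 3.78) and 2.39 (1.57 to 3.77), and the log2 difference was 1.24 (SE 0.38), with an adjusted p of 0.0156 in edgeR's quasi-likelihood test with library as a block. Of 1664 genes tested, 178 were called (10.7%), 77 higher (4.63%) and 101 lower (6.07%) in LSEC-like cells, and Plpp3 was the 1 called member of 3 tested. The call was not made by DESeq2 (adjusted p = 0.174), with DESeq2 size factors (0.054) or without the block (0.179), and with 2 libraries neither could be left out.

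Plpp1 differed between the libraries in this comparison. In HFHC 4 it had 424 CPM in LSEC-like and 399 CPM in vascular endothelial-like cells, a ratio of 1.06 (0.71 to 1.66), and in control 2 it had 1456 CPM in LSEC-like and 363 CPM in vascular endothelial-like cells, a ratio of 4.01 (2.47 to 6.92). Its log2 difference of 1.04 (SE 0.39) did not pass (adjusted p = 0.0677, edgeR). Vascular endothelial-like cells had similar Plpp1 values in HFHC 4 and control 2, a ratio of 1.10 (0.576 to 2.14) on 25 and 18 UMIs, and Plpp3 gave 0.578 (0.302 to 1.09) on 19 and 26 UMIs. S1pr1 was not called, at -0.50 (SE 0.47, adjusted p = 0.663, edgeR). Entpd1, too sparse to be tested, had 4.11 CPM in LSEC-like and 175 CPM in vascular endothelial-like cells of HFHC 4, a ratio of 0.0234 (0.00545 to 0.0791), and 7.79 CPM in LSEC-like and 101 CPM in vascular endothelial-like cells of control 2, a ratio of 0.0773 (0.00163 to 0.690).

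Liver sinusoids run from the portal tract to the central vein, and LSECs differ along the way. Plpp1 was higher in pericentral-leaning than in periportal-leaning LSEC-like cells of the same library, and the other tested members did not pass. The cells were divided by the number of detected markers, 12 pericentral and 10 periportal, none of them a member, so the groups are ranges of a per-cell count and not cell types. The pericentral markers summed to 6138, 7538 and 4333 CPM in pericentral-leaning cells of HFHC 4, control 2 and control 3 and to 4903, 2515 and 1258 CPM in periportal-leaning cells, so the groups stood closest in HFHC 4. The periportal markers summed to 783, 847 and 851 CPM in pericentral-leaning and to 3363, 3057 and 3115 CPM in periportal-leaning cells. Plpp1 had 536 CPM in pericentral-leaning and 283 CPM in periportal-leaning cells of HFHC 4, 2076 and 499 CPM in those of control 2, and 2073 and 1246 CPM in those of control 3. The pericentral value was the higher in all 3 libraries, with ratios of 1.89 (1.49 to 2.41), 4.16 (2.67 to 6.77) and 1.66 (1.46 to 1.90). The log2 difference was 1.06 (SE 0.16), with an adjusted p of 4.34e-09 in edgeR's quasi-likelihood test with library as a block. That p leans on spread shared over genes and not on the 3 libraries alone. In this test 71 of 4466 genes were called (1.59%), 36 higher (0.806%) and 35 lower (0.784%).

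Plpp1 also passed in each fit that left out a library, with log2 differences of 1.16 without HFHC 4, 0.83 without control 2 and 1.38 without control 3. Controls 1 and 4, with fewer than 10 cells in a group, were not fitted and had ratios of 2.18 (1.01 to 4.63) and 1.66 (1.03 to 2.82). Its call was not made without the library block (adjusted p = 0.9999). Hepatocyte markers summed to 127, 2321 and 119 CPM in pericentral-leaning cells of HFHC 4, control 2 and control 3, and to 212, 4205 and 260 CPM in periportal-leaning cells, and their part was not tested. Median depth was 1644, 1907 and 1635.5 UMIs per pericentral-leaning cell and 1632, 2092 and 1397 UMIs per periportal-leaning cell.

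The other phosphatase gene gave no such difference. Plpp3 had 586 CPM in pericentral-leaning and 797 CPM in periportal-leaning cells of HFHC 4, 1325 and 1149 CPM in those of control 2, and 1407 and 1490 CPM in those of control 3, with a log2 difference of -0.14 (SE 0.15, adjusted p = 0.913, edgeR). Ada had 13.3, 54.6 and 142 CPM in pericentral-leaning cells of HFHC 4, control 2 and control 3 and 23.0, 0 and 99.03 CPM in periportal-leaning cells, a log2 difference of 0.39 (SE 0.37, adjusted p = 0.89, edgeR). S1pr1 at -0.44 (SE 0.27, adjusted p = 0.746) and Spns2 at -0.61 (SE 0.39, adjusted p = 0.774) did not pass edgeR's test either.

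**Figure D4:**
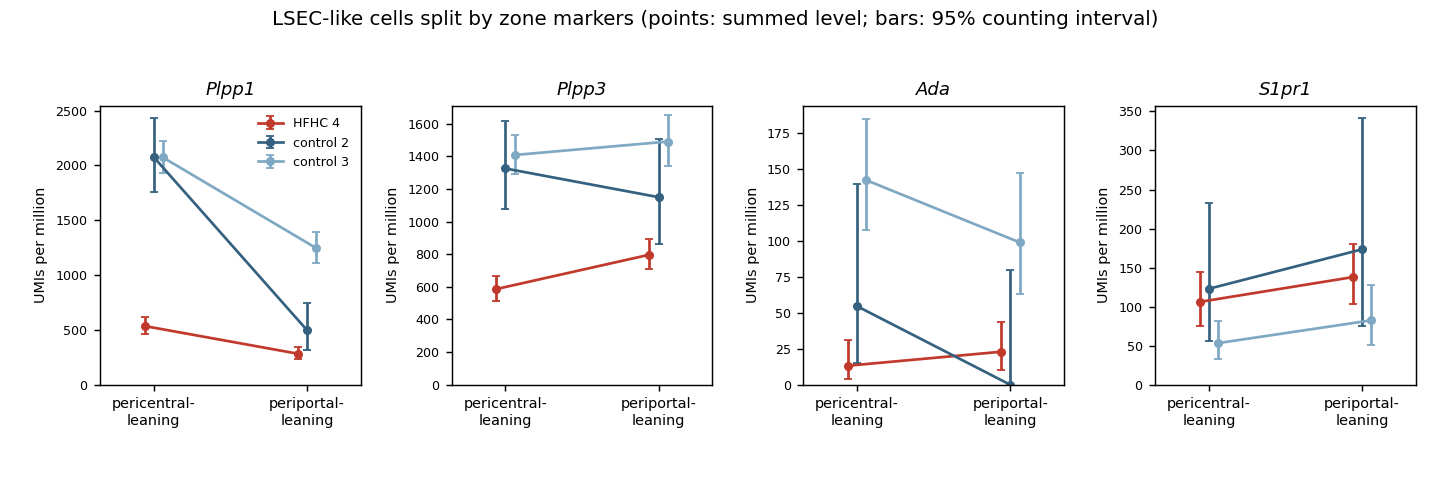
Levels of Plpp1, Plpp3, Ada and S1pr1, in CPM, in pericentral-leaning (left) and periportal-leaning (right) LSEC-like cells of HFHC 4, control 2 and control 3, with lines joining the groups of 1 library and exact 95% counting intervals. Plpp1 runs downward to the right in all 3 libraries, and the other 3 genes show no shared slope past the test.

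With all cells of a library summed, no gene passed between the diets (0 of 6666 tested, 0%; 54 at an unadjusted p under 0.05 in edgeR, 126 in DESeq2), so no member was called. In such sums, fewer cells of a type and less RNA per cell cannot be told apart. Plpp1 had 105, 15.8, 4.33 and 417 CPM in HFHC 1 to 4 and 481, 154, 1621 and 820 CPM in controls 1 to 4, and the groups overlapped. Plpp3 had 62.5, 59.9, 6.50 and 648 CPM in HFHC 1 to 4 and 505, 163, 1376 and 532 CPM in controls 1 to 4. Both genes were highest in control 3, which held 545 LSEC-like cells. They were lowest in HFHC 1, 2 and 3, which held 3, 0 and 2 such cells. Adk was highest in the hepatocyte-rich libraries HFHC 3 and control 2. It had 171, 372, 1396 and 25.03 CPM in HFHC 1 to 4 and 58.7, 939, 26.3 and 73.8 CPM in controls 1 to 4. The log2 differences were -2.45 (SE 1.22) for Plpp1, -1.69 (SE 1.15) for Plpp3, 0.82 (SE 1.48) for Adk, 1.38 (SE 1.47) for Enpp2, -0.62 (SE 0.95) for S1pr1 and 0.12 (SE 0.67) for Spns2, each with an adjusted p of 0.9995 in edgeR. For Plpp1 the value was -3.09 among the 5 libraries that share barcodes and -1.45 among the remaining 3.

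The other genes of these pathways were read from 3 lists. In LSEC-like cells of HFHC 4 against controls, 8 genes of purine handling and 2 ATP and ADP receptors were tested. So were 4 genes of lysophospholipid and S1P handling. Of these 14 genes edgeR called none, and DESeq2 gave no adjusted p for any. Slc29a1, the equilibrative nucleoside transporter that carries adenosine across the membrane, had 283 CPM in HFHC 4 and 473, 600.0, 646 and 836 CPM in controls 1 to 4, below all controls. Its log2 difference was -1.04 (SE 0.43, adjusted p = 0.411, edgeR). Dpp4, the peptidase that binds adenosine deaminase at the cell surface in humans, had 193 CPM in HFHC 4 and 549, 312, 377 and 489 CPM in controls 1 to 4, a log2 difference of -0.99 (SE 0.47, adjusted p = 0.687, edgeR). P2ry1, an ADP receptor gene, had 25.7 CPM in HFHC 4 and 75.7, 85.7, 101 and 141 CPM in controls 1 to 4, a log2 difference of -1.83 (SE 0.68, adjusted p = 0.286, edgeR). These 3 genes were among 6 of the 14 tested that lay below all 4 controls in HFHC 4, a position that 17.4% of all tested genes held, and none of the 6 passed the test.

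Hprt, the purine salvage enzyme gene, was at 0.40 (SE 0.46) and the ATP receptor gene P2rx4 at -0.79 (SE 0.60) on the log2 scale. The LPA receptor gene Lpar6 was at -0.19 (SE 0.45), the S1P phosphatase gene Sgpp1 at -0.48 (SE 0.50) and Abhd16a at -0.51 (SE 0.59). List medians were -0.14, -1.31 and -0.38, against -0.06 over all 3363 genes tested.

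Between the cell classes and zones, further pathway genes passed edgeR's test. In LSEC-like against vascular endothelial-like cells, 1 of 6 tested purine genes was higher and 1 lower, with a list median of 0.15 against 0.00069 over all genes tested. Of the 31 lysophospholipid and S1P genes only Lpar6 and Sgpp1 had enough UMIs to be tested, and these came mostly from the LSEC-like sums. Their calls, where 4.63% of all genes were called higher, therefore say nothing of the rest of the list. Dpp4 had 188 and 40 UMIs in LSEC-like cells of HFHC 4 and control 2 and 0 in vascular endothelial-like cells of both. It was at least 7.75-fold higher against a level of 3 UMIs over the group (adjusted p = 4.8e-08, edgeR). With 0 vascular UMIs, Dpp4 entered the test through its LSEC-like sums alone and could only be called higher. Its call is therefore a description. Lpar6 had 291 against 63.8 CPM in HFHC 4 and 249 against 121 CPM in control 2, a log2 difference of 1.63 (SE 0.52, adjusted p = 0.0199). Sgpp1 had 154 against 47.8 CPM in HFHC 4 and 210.3 against 40.3 CPM in control 2, at 2.00 (SE 0.62, adjusted p = 0.0162), on 3 and 2 UMIs in the vascular cells. Aprt, the adenine salvage enzyme gene, was lower, at -2.09 (SE 0.60, adjusted p = 0.00739). DESeq2 called 0 of these 8 genes.

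Along the sinusoid, Slc29a1 was the 1 of 9 tested purine genes that passed. No gene was called among 2 receptor genes and 5 lysophospholipid and S1P genes. It had 326 CPM in pericentral-leaning and 260.5 CPM in periportal-leaning cells of HFHC 4, 806 and 325 CPM in those of control 2, and 749 and 532 CPM in those of control 3. The log2 difference was 0.56 (SE 0.16, adjusted p = 0.0393, edgeR), higher on the pericentral side in all 3 libraries, as for Plpp1. DESeq2 did not call it. List medians were 0.26, 0.07 and 0.0048, against 0.0083 over all genes tested.

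The genes most like Plpp1 over the 23 library-by-class sums, by Pearson correlation of log2(CPM + 10) among 6055 genes, were Adgrf5 (r = 0.974), Tmem204 (0.965), Eng (0.965), Tmem88 (0.961) and Slc43a3 (0.961). Plpp3 followed Plpp1 at rank 8 (r = 0.953). For Ada they were Tspan18 (r = 0.942), Shank3 (0.919), Stard8 (0.918), Col13a1 (0.915) and Pcdh12 (0.907), with Plpp1 at rank 42 (0.839). Adk gave -0.68 with Plpp1 and -0.62 with Ada. The sums share libraries and differ in depth, so these correlations describe the pattern over classes.

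Of the members, 5 overlap another annotated gene. Plpp1 (mm10 chromosome 13, 112800792 to 112867894, plus strand) overlaps Mtrex on the opposite strand, Spns2 (chromosome 11, 72451638 to 72489904, minus strand) overlaps Mybbp1a and Enpp2 (chromosome 15, 54838901 to 54952892, minus strand) overlaps Gm26684 in the same way. Entpd1 (chromosome 19, 40612366 to 40741602, plus strand) overlaps Gm16027, Gm8783 and AC166063.1, and Adk (chromosome 14, 21052574 to 21448569, plus strand) overlaps Gm26372, all on its own strand. Strand use in counting is not given in the sources used here. Whether reads of these pairs were told apart was not examined. Plpp3 (chromosome 4, 105157347 to 105232764, plus strand), S1pr1 (chromosome 3, 115710433 to 115715072, minus strand), Nt5e (chromosome 9, 88327197 to 88372092, plus strand), Adora2a (chromosome 10, 75316877 to 75334784, plus strand) and Ada overlap no other annotated gene.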

How the data were processed

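Per the labels, liver cells of 8 mice were sorted and sequenced on the 10X Genomics Chromium platform. The authors deposited raw UMI counts per gene and cell; per the submitters' processing notes they used Cell Ranger 3.0.1 and Seurat on mm10, with no role or annotation release given. A barcode found in several libraries was kept where it had the highest UMI count, so that 3192 of 3416 cells stayed (224 removed; at least 202 genes each); no doublet caller was run here.

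A cell took 1 of 17 class names from its mean scaled log level over that class's markers, with at least 3 detected and a score at least 1.2 times that of the second class. This named 3026 cells, 1217 of them LSEC-like, and left 166 unnamed. A zone needed at least 1 more detected marker of that side. Members, lists, markers and alternatives were chosen with earlier results of these data known; the zone count was set after seeing that 1 marker dominated UMI sums.

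Counts were summed per library and group holding 10 cells or more, and edgeR 4.0.16 in R 4.3.3 tested the sums (TMM, filterByExpr, robust quasi-likelihood, Benjamini-Hochberg, threshold 0.05). A run on simulated counts gave every gene the same spread and libraries no difference but depth, so it does not vouch for these fits. The SE is the absolute log2 difference over the square root of F. Only the library sums had 4 libraries per diet, and the LSEC fit takes its spread from 4 control libraries. edgeR also moderates each gene's spread with that of the other genes tested. An SE or p is therefore not a single gene's own measured spread between libraries. Other settings were DESeq2 1.42.0, size factors from DESeq2 in edgeR, no filter on low counts, all barcode copies, at least 500 genes per cell, at least 5 class markers, blocks, other zone gates and leaving out libraries. Ratios carry exact conditional intervals and shares Wilson intervals (scipy 1.17.1); a count of 0 allows 3 counts. Named genes were all members, and of each list those past the threshold in a comparison and otherwise up to 3 of highest mean CPM; P2ry1 was 1 of 2 tested receptors. Same-numbered libraries deviated from their group means with correlations of 0.55, -0.21, -0.50 and 0.21. The libraries differ in cell make-up, so these values cannot settle whether the numbers pair mice. No label says how libraries were prepared together, and each mouse is taken as 1 replicate. Loci came from GENCODE vM21 and promoters from RefSeq. Sequence reads were not used here.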

Additional observations from a re-analysis of the deposited data

Results flagged for a closer look

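Of 28 groups of 4 libraries tested, 6 had a library whose gap to its nearest neighbour exceeded Dixon's 95% critical share of the group's range. Chance flags about 1 in 20 groups of normally spread values. A group with UMIs in only 1 library is always flagged, as for Nt5e over all cells of controls and Entpd1 in their LSEC-like cells. The 6 flags can therefore not be set against that rate. Among HFHC libraries summed over all cells, HFHC 4 stood alone for Plpp3 at 647.9 CPM (next 62.5) and for S1pr1 at 128.8 CPM (next 13.2), and HFHC 4 is the HFHC library that held 548 LSEC-like cells. Among control libraries summed over all cells, control 2 stood alone for Adk at 938.6 CPM (next 73.8), with 656 hepatocyte-like cells of 875. Nt5e stood alone in all cells of HFHC 1 at 6.577 CPM (next 0.927) and of control 2 at 1.689 CPM (the other controls at 0), each on 2 or 3 UMIs. Entpd1 in LSEC-like cells of controls was found in control 2 alone, at 7.788 CPM from 1 UMI.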

How the results depend on the processing

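Replicate numbers were not used to pair mice in the main fits. With the number as a block (replicate block), the count over all cells stayed at 0 called genes, Plpp1 was -3.31 and Spns2 -0.052. Over all cells, 1 gene was called within control 3, control 4 and HFHC 4 (the other 3 libraries, outside the barcode-sharing set), against 0. For LSEC-like cells on both diets (12 called), DESeq2 called 68 (60 higher, 8 lower), no filter on low counts gave 6, and leaving out a control gave 8 to 19, with 19 without control 1 and 8 without control 2. LSEC-like against vascular endothelial-like cells (178 called) gave 52 with DESeq2, 112 with its size factors and 73 without library block. The zone comparison (71 called) gave 18 with DESeq2, 11 without library block, 44 with a gate of at least 2 marker UMIs, 21 without Fabp4 and Pcdh17 among the markers (chosen after seeing the data) and 35 to 62 when a library was left out (43 without HFHC 4, 35 without control 3). In LSEC-like cells Plpp1 was not called with no filter (-1.60), and DESeq2 called Plpp3 (-0.90). Plpp1 in LSEC-like against vascular endothelial-like cells was called with no filter (1.38). Over all zone settings Plpp1 ran from 0.72 to 1.38. Signs changed, among differences that never passed, for Adk over all cells (-0.85 within the other 3 libraries; -0.96 without HFHC 3 to 3.704 without control 2) and in LSEC-like cells (-0.71 without control 4 to 0.29 without control 2); for Spns2 over all cells (-0.052 with the block, -0.035 within the other 3 libraries, -0.024 without HFHC 1, -0.17 without HFHC 2; from -0.18 without control 2 to 0.53 when 1 library was left out) and in LSEC-like cells (0.038 with no filter; 0.058 without control 2; from -0.26 without control 4 to 0.21 without control 1); for S1pr1 over all cells (0.53 within the other 3 libraries) and by zone (0.034 with a gate of at least 1 marker UMI, chosen after seeing the data); and for Plpp3 by zone (-0.22 without control 2 to 0.016 without HFHC 4). The cause was not tested. Of 236 single-gene values under an alternative, 212 kept direction and side of the threshold. Leaving out HFHC 4 in the LSEC-like comparison, or either library in the vascular one, was not run since no second library remained. Depth limits Ada, Entpd1, Nt5e and Enpp2, most of whose sums hold fewer than 20 UMIs.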
